A study of Homo sapiens with 6 samples.

Results

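Translation initiation factors were examined in MM1.S cells, a human multiple myeloma line, after knockdown of beta-catenin. Genes whose symbol begins EIF1 to EIF6 were taken by the array annotation, without the EIF2AK kinases and without pseudogenes. This gave 50 of 19775 genes that have probe sets, of which 48 code for proteins and 2 are the noncoding RNA genes EIF1B-AS1 and EIF3J-DT. No expression value entered the choice of members.

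The knockdown group was 3 arrays from MM1.S cells infected with a lentiviral beta-catenin shRNA vector, and the control group was 3 arrays from MM1.S cells infected with the GFP control vector. Both groups had been sorted for GFP and cultured in triplicate, so infection, GFP and sorting were common to all 6 arrays. The titles of the control arrays name no shRNA. Effects of the shRNA itself, off-target ones included, cannot be told apart from loss of beta-catenin. No separate infections or clones are described, and a p-value here measures the spread between these cultures, which may be technical. The array is a single-channel Affymetrix design, values are log2 expression, and each array was made from 6 ug of total RNA.

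Initiation factors bring the initiator tRNA, the small ribosomal subunit and the mRNA together. eIF2 carries the initiator tRNA as a complex with GTP, and eIF2B is the exchange factor that recharges eIF2 and is blocked when the alpha subunit of eIF2 is phosphorylated. eIF3 is the large scaffold on the small subunit, and the eIF4 group binds the mRNA cap and unwinds the leader. Myeloma cells secrete large amounts of immunoglobulin, which makes protein synthesis and its stress pathways well studied in them. Many mRNAs of the translation machinery start with a C followed by a run of pyrimidines (C or T), the 5′ terminal oligopyrimidine tract through which their translation is controlled.

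The starts of 5 factors that were higher in the knockdown carry such a run. They are shown with 4 factors without a run near a start that were lower on their brightest probe set. Among these 4, EIF2S1 and EIF3B also had a probe set called higher. Other lower factors, among them EIF3C, EIF3J and EIF4E2, have a run near a start and are not shown. Each stretch has 15 bases before and 15 bases from an annotated start, read 5′ to 3′ from RefSeq on GRCh38.p14, and capitals mark C followed by at least 4 pyrimidines where the run begins within 10 bases of the start. The higher factors EIF2A, EIF2D, EIF2S3, EIF3F and EIF4B come first, followed by EIF3K and EIF3M, lower factors that also carry the tract, and then by EIF2S1, EIF3B, EIF4A3 and EIF5B.
EIF2A, chr3:150546772-150546801, plus strand: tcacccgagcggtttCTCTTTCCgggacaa
EIF2D, chr1:206612451-206612480, minus strand: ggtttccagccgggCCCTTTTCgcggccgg
EIF2S3, chrX:24054941-24054970, plus strand: ggggtgatttCCTTCCTCTTTTggcaacat
EIF3F, chr11:7987322-7987351, plus strand: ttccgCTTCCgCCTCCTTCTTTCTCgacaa
EIF4B, chr12:53006441-53006470, plus strand: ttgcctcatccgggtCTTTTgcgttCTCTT
EIF3K, chr19:38619173-38619202, plus strand: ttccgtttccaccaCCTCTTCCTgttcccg
EIF3M, chr11:32583816-32583845, plus strand: gcgcggcccagttCCCTTTTCCggtcggcg
EIF2S1, chr14:67360313-67360342, plus strand: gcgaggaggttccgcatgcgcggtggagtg
EIF3B, chr7:2354812-2354841, plus strand: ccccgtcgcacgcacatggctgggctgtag
EIF4A3, chr17:80147114-80147143, minus strand: gttctcggcagcggcacagcgaggtcggca
EIF5B, chr2:99337374-99337403, plus strand: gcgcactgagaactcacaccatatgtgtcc

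CTNNB1, which encodes beta-catenin, averaged 6.42 ± 0.098 in the knockdown arrays and 7.75 ± 0.076 in the control arrays (SD, n = 3 each), a level at 39.8% of control (limma adjusted p = 9.04e-12). That value is from its brightest probe set. With the mean over its 3 probe sets the change was -0.36 (limma adjusted p = 0.00238). The other CTNNB1 probe sets were therefore not lower on average, and the check of the knockdown rests on the brightest one. The array medians lay at 5.50 to 5.54 in the knockdown and 5.44 to 5.50 in the control. Correlations over all probe sets were 0.986 to 0.990 within the knockdown group, 0.980 to 0.983 within the control group and 0.945 to 0.953 between groups. Probe sets for ribosomal RNA averaged 9.75, 9.81 and 10.2 in the knockdown arrays and 8.60, 9.63 and 8.84 in the control arrays. The 3′ minus 5′ difference of ACTB, a measure of RNA integrity, was 0.54 to 0.64 in the knockdown and 0.53 to 0.89 in the control. The part of these differences in the results below was not tested. Of 13 plasma cell and myeloma markers, 12 were above the detection filter, as were 3 of 6 B cell genes. Among the B cell genes, CR2 rose by 1.05 (limma adjusted p = 2.16e-08), CD79A and CD22 did not pass, and MS4A1 and PAX5 were below the filter. The myeloid gene CSF1R rose by 0.31 (limma adjusted p = 0.0332), while the myeloid genes LYZ and S100A9 did not pass and CD14 was below the filter. The erythroid gene HBB rose by 0.24 (limma adjusted p = 0.025). The tested T and NK cell genes, CD3D and GNLY, were not called. Of 5 fibroblast genes, 4 were above the filter and none was called, with COL1A1 at 8.01 in the knockdown and 7.91 in the control.

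Lower expression was the more frequent direction among the initiation factors. Of 42 coding factors that could be tested, 11 rose in the knockdown, 25 fell and 6 did not pass an adjusted p of 0.05 in limma. Over all 12939 genes tested, 25.3% were called higher and 22.0% lower, so the factors' share of higher calls, 26.2%, was near the background and their share of lower calls, 59.5%, was above it. The median change, knockdown minus control on the log2 scale, was -0.30 for the factors and 0.05 for all genes. Calls in either direction made up 47.3% of all genes. In each of the 36 called factors the 3 knockdown arrays lay wholly on one side of the 3 control arrays, 11 above and 25 below. Of all genes, 54.4% did so, 29.9% above and 24.5% below. EIF1, EIF2S1, EIF3J and EIF4A3, 4 of the 42, changed at least 2-fold, as did 6.12% of all genes. In bulk cultures a lower signal can come from fewer expressing cells or from less RNA per cell, and these cannot be told apart.

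The remaining coding members could not be tested, while both noncoding members were. EIF1AY, EIF4A2 and EIF5A2 lay below the filter of 5.49 on the mean of the 6 arrays. EIF3CL, EIF4A1 and EIF4EBP3 had only probe sets annotated to several genes and are not named with a value. The noncoding EIF3J-DT, transcribed beside EIF3J, rose by 0.31 (limma adjusted p = 0.0193). EIF1B-AS1, antisense to EIF1B, rose by 0.27 on its brightest probe set (limma adjusted p = 0.0312). In limma over all probe sets that probe set did not pass (adjusted p = 0.063). Its other probe sets, also above the filter, changed by 0.06 and 0.11 without passing.

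**Figure D1:**
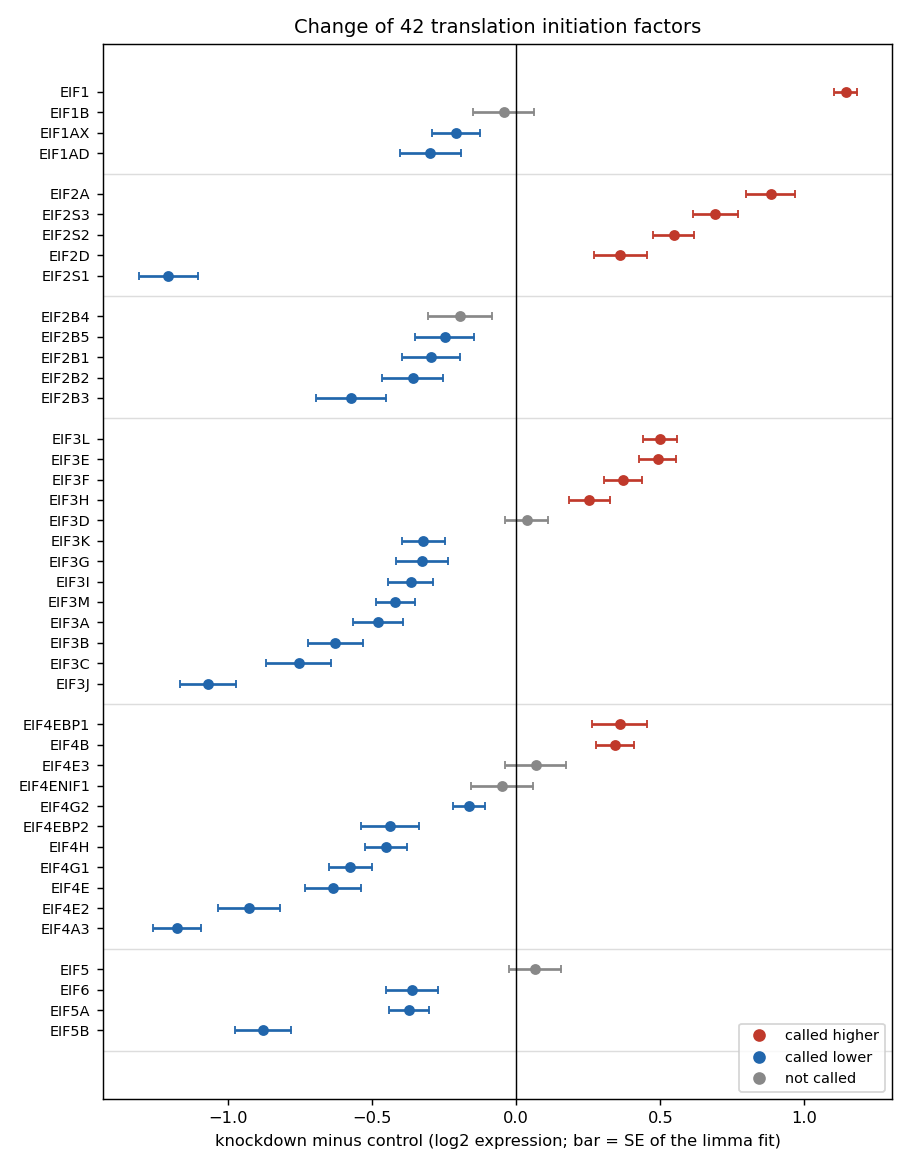
Change of each tested coding initiation factor, knockdown minus control in log2 units, with bars for the standard error of the fit and colours for the call, grouped by EIF number. The changes run from -1.21 for EIF2S1 to 1.14 for EIF1, every EIF2B subunit lies left of 0, and the EIF2 and EIF3 groups spread to both sides.

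The EIF1 group holds the factors that guard start codon choice on the scanning ribosome, and EIF1 itself was the member with the largest rise. EIF1 was at 12.77, 12.74 and 12.73 in the knockdown arrays, against 11.60, 11.63 and 11.57 in the control arrays. The groups were far apart relative to the spread inside each. The change was 1.14 ± 0.038 (SE), 2.21-fold, with a limma adjusted p of 3.68e-20. Of 6 further EIF1 probe sets above the filter, 5 rose by 1.70 to 3.20 and 1 changed by 0.21 without passing the test. The suffixes _x_ and _s_ of probe sets mark possible cross-hybridisation and shared transcripts. When probe sets with neither were taken first, EIF1 changed by 0.21 and lost its call (limma adjusted p = 0.145). The probe set that rose by 3.20 also has neither suffix.

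The other members of the EIF1 group changed less on their brightest probe sets. EIF1AX, the eIF1A that acts beside EIF1, was at 8.98, 8.97 and 8.87 in the knockdown arrays and at 9.18, 9.02 and 9.25 in the control arrays. EIF1AD, whose name marks an eIF1A domain, was at 6.52, 6.55 and 6.53 in the knockdown arrays and at 6.73, 6.93 and 6.83 in the control arrays. Both were lower in each knockdown array than in each control array, by 0.21 for EIF1AX (limma adjusted p = 0.0396) and 0.30 for EIF1AD (limma adjusted p = 0.0212). A dimmer probe set of EIF1AX was lower by 0.79 (adjusted p = 8.46e-06 in limma over all probe sets), and a pair of others changed by 0.06 and 0.03 without passing. The other EIF1AD probe set changed by -0.08 without passing. With the mean over its probe sets, EIF1AD changed by -0.19 and did not pass (limma adjusted p = 0.0706). Both calls were lost when single arrays were left out: EIF1AX had adjusted p-values of 0.0576 to 0.190 without control replicate 1 or 3 or any knockdown replicate, and EIF1AD of 0.0506 to 0.0761 without control replicate 2 or 3 or knockdown replicate 1. EIF1B, a close relative of EIF1, differed by -0.04 and did not pass (limma adjusted p = 0.766).

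On their brightest probe sets, the eIF2 subunits did not all move the same way. EIF2S2 and EIF2S3, the beta and gamma subunits, rose, and EIF2S1, the alpha subunit that carries the regulatory phosphorylation site, was lower on its brightest probe set. EIF2S3 was at 9.42, 9.57 and 9.46 in the knockdown arrays, against 8.74, 8.78 and 8.84 in the control arrays. The groups did not overlap, and the change was 0.69 ± 0.080 (SE, limma adjusted p = 2.17e-08). EIF2S2 rose by 0.55 (limma adjusted p = 1.7e-07), and the further probe sets of EIF2S2 and EIF2S3 also passed as higher.

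EIF2S1 was at 7.28, 7.17 and 7.12 in the knockdown arrays, against 8.58, 8.23 and 8.38 in the control arrays. This is a change of -1.21 ± 0.10 (SE, limma adjusted p = 5.7e-11), or 43.3% of control, the lowest change of any tested factor. The probe sets of EIF2S1 went different ways. A probe set for the same gene was higher by 0.31 (adjusted p = 0.0408 in limma over all probe sets), and the third differed by -0.27 without passing. No single direction can be given for EIF2S1 from these arrays.

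EIF2A and EIF2D are proteins outside the eIF2 complex that can deliver tRNA to the ribosome without it. EIF2A was at 9.23, 9.30 and 9.17 in the knockdown arrays, against 8.44, 8.24 and 8.37 in the control arrays. The knockdown arrays were all higher, by 0.88 ± 0.086 on average (SE, limma adjusted p = 7.9e-10). EIF2D rose by 0.36 (limma adjusted p = 0.00169). On the brightest probe sets, 4 of the 5 EIF2 members passed as higher, as did 25.3% of all genes, and EIF2S1 passed as lower. The median change of the 5 was 0.55. When probe sets with no _x_ or _s_ suffix were taken first, these suffixes marking possible cross-hybridisation and shared transcripts, EIF2S1 passed as higher too.

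Every one of the 5 EIF2B subunits had a lower mean in the knockdown, and 4 passed as lower, as did 22.0% of all genes. The changes of the 5 subunits lay between -0.57 and -0.19, with a median of -0.30. EIF2B1, EIF2B2 and EIF2B4 form the regulatory core that senses phosphorylated eIF2, and EIF2B3 and EIF2B5 form the catalytic part, with EIF2B5 carrying the exchange activity. EIF2B3 was at 6.76, 6.81 and 6.33 in the knockdown arrays, against 7.34, 7.19 and 7.10 in the control arrays. The knockdown arrays were all lower and the third stood furthest from the control, and the change was -0.57 ± 0.12 (SE, limma adjusted p = 0.000213).

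EIF2B2 was at 6.96, 6.96 and 6.89 in the knockdown arrays and at 7.41, 7.13 and 7.36 in the control arrays, without overlap. It fell by 0.36 (SE 0.11, limma adjusted p = 0.00616). EIF2B1 was at 7.83, 8.05 and 7.85 in the knockdown arrays and at 8.35, 8.08 and 8.19 in the control arrays, so that its highest knockdown array nearly met its lowest control array. It fell by 0.30 (SE 0.099, limma adjusted p = 0.0154). EIF2B5 fell by 0.25 with an adjusted p of 0.0451 in limma.

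EIF2B4 was at 7.22, 7.19 and 7.18 in the knockdown arrays and at 7.57, 7.12 and 7.47 in the control arrays. Its second control array lay below all 3 knockdown arrays, the groups overlapped, and its change of -0.19 did not pass (SE 0.11, limma adjusted p = 0.158). Its other probe set was lower by 0.36 (adjusted p = 0.0218 in limma over all probe sets), and with the mean over probe sets all 5 EIF2B subunits passed as lower. Without control replicate 2, EIF2B4 changed by -0.33 and passed (limma adjusted p = 0.0116). The EIF2B calls were few enough to depend on single arrays: 2 subunits passed without control replicate 1, knockdown replicate 1 or knockdown replicate 3, and 5 passed without control replicate 2. EIF2B1 had adjusted p-values of 0.0556 to 0.0953 in limma without control replicate 1 or knockdown replicate 1 or 3, and EIF2B5 of 0.0557 to 0.185 when any array other than control replicate 2 was left out. With a test that does not share the spread between genes, 1 subunit passed. Per array, the mean of the 5 subunits relative to the control mean was -0.33, -0.26 and -0.41 in the knockdown and 0.14, -0.14 and -0.0015 in the control.

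**Figure D2:**
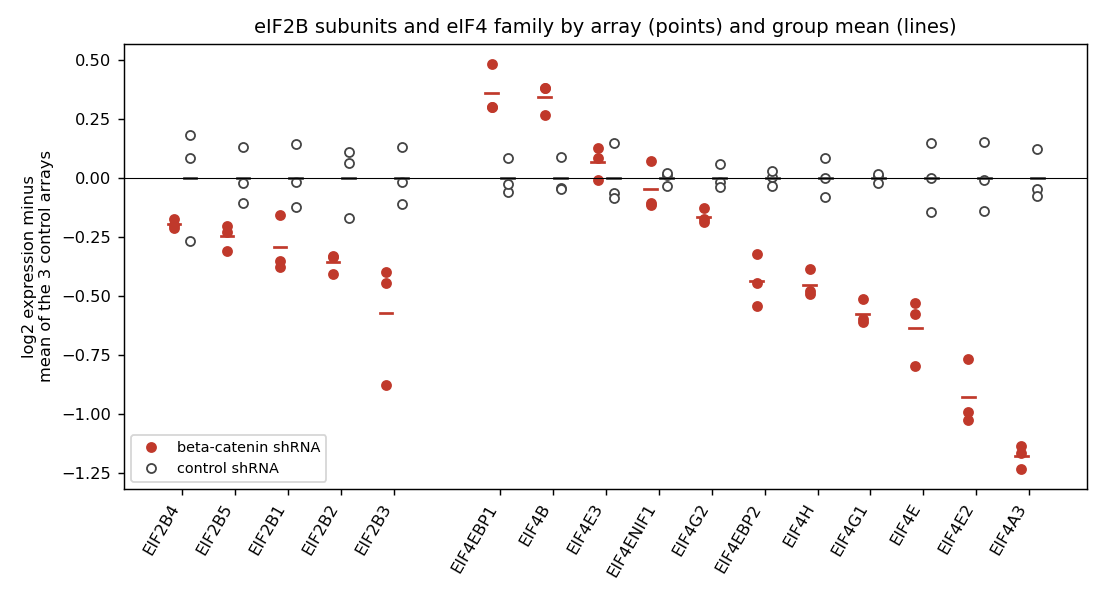
Log2 expression minus the mean of the 3 control arrays for the tested EIF2B and EIF4 members, with 3 knockdown points (filled) left of 3 control points (open) for each gene and a short line at each group mean. EIF4A3 and EIF4E2 show wide gaps between the groups, while the EIF2B4 points overlap. Control shRNA in the legend stands for the GFP control vector.

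The EIF3 group split by subunit. Of 13 tested subunits, 4 rose (30.8%), 8 fell (61.5%) and EIF3D did not pass, against 25.3% and 22.0% of all genes. The median change was -0.33. The core of eIF3 is built from subunits that share PCI or MPN domains. Of its 8 tested subunits, EIF3E, EIF3F, EIF3H and EIF3L rose and EIF3A, EIF3C, EIF3K and EIF3M fell, with a median of -0.03. EIF3B, EIF3G and EIF3I, which form a mobile module near the mRNA channel, fell, with a median of -0.37. When probe sets with no _x_ or _s_ suffix were taken first, the EIF3 median was 0.04 and EIF3A, EIF3B, EIF3E and EIF3K turned direction.

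EIF3L, a PCI subunit at the edge of the complex, had the lowest adjusted p of the higher subunits. It was at 11.01, 11.02 and 10.97 in the knockdown arrays, against 10.61, 10.49 and 10.41 in the control arrays, a change of 0.50 ± 0.059 (SE, limma adjusted p = 3.32e-08). EIF3E, also known as INT6, was at 10.44, 10.47 and 10.48 in the knockdown arrays, against 10.02, 10.02 and 9.88 in the control arrays, a change of 0.49 ± 0.064 (SE, limma adjusted p = 2.14e-07). EIF3F, an MPN subunit, was at 10.38, 10.54 and 10.45 in the knockdown arrays, against 10.19, 10.05 and 10.03 in the control arrays, a change of 0.37 ± 0.066 (SE, limma adjusted p = 2.94e-05). In these 3 subunits no knockdown array came down to the level of a control array. With the mean over probe sets, EIF3E changed by 0.17 (limma adjusted p = 0.0714) and EIF3F by 0.16 (limma adjusted p = 0.196). EIF3H, the other MPN subunit, rose by 0.25 (limma adjusted p = 0.00406), against -0.04 with the mean over probe sets. That mean takes in a probe set below the filter, at 4.93 in the knockdown and 5.26 in the control. The EIF3F mean also takes in a probe set below the filter, at 4.23 in the knockdown and 4.26 in the control. The EIF3H call was lost without control replicate 3, where the change was 0.17 (limma adjusted p = 0.0503).

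EIF3J is a loosely attached subunit that sits in the decoding centre of the small subunit, and it fell furthest in the group. It was at 7.46, 7.69 and 7.47 in the knockdown arrays, against 8.64, 8.62 and 8.56 in the control arrays. The lowest control array was well above the highest knockdown array, and the change was -1.07 ± 0.096 (SE, limma adjusted p = 1.48e-10), or 47.6% of control. Its second probe set was also lower. The noncoding EIF3J-DT at the same place in the genome was higher, at 6.40 in each knockdown array and at 6.13, 6.04 and 6.10 in the control arrays.

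EIF3C, a central core subunit, was at 5.97, 5.79 and 5.69 in the knockdown arrays, against 6.58, 6.49 and 6.64 in the control arrays. The change was -0.76 ± 0.11 (SE, limma adjusted p = 2.17e-06), from a dim probe set. EIF3C has the near-identical copy EIF3CL, so its value is uncertain as that of 1 gene. EIF3B was at 8.0, 8.01 and 7.88 in the knockdown arrays, against 8.76, 8.53 and 8.49 in the control arrays, a change of -0.63 ± 0.095 (SE, limma adjusted p = 2.51e-06). The groups did not overlap in either subunit, and a pair of further EIF3B probe sets gave -0.62 and -0.64, while another was higher by 0.62 (adjusted p = 0.003 in limma over all probe sets).

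The other lower subunits changed by smaller amounts. EIF3A, the largest scaffold subunit, fell by 0.48 (limma adjusted p = 3.32e-05), EIF3M by 0.42 (limma adjusted p = 5.2e-06) and EIF3I by 0.37 (limma adjusted p = 0.000263). EIF3G fell by 0.33 (limma adjusted p = 0.00341) and EIF3K by 0.32 (limma adjusted p = 0.000812). When their probe sets were averaged, EIF3M changed by -0.11 (limma adjusted p = 0.289) and EIF3K by -0.18 (limma adjusted p = 0.0877). The other EIF3A probe sets, both above the filter, changed by -0.19 and 0.04 without passing (adjusted p = 0.0905 and 0.87 in limma over all probe sets). EIF3D, which can itself bind the cap of some mRNAs, differed by 0.04 (limma adjusted p = 0.727). Without control replicate 1, its highest control array, EIF3D was higher by 0.15 (limma adjusted p = 0.0349).

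**Figure D3:**
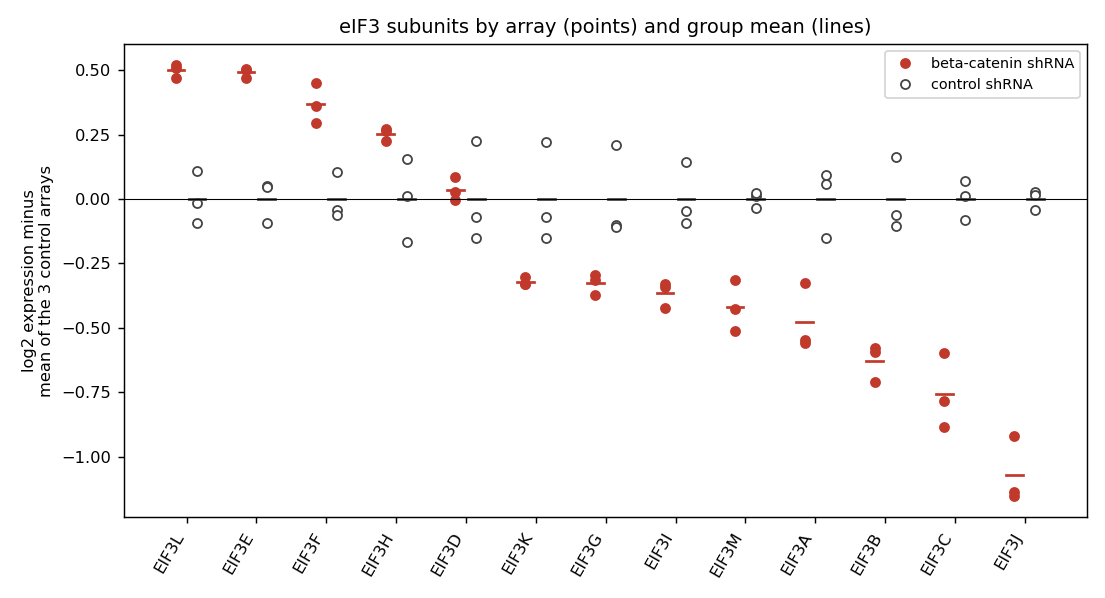
Log2 expression minus the mean of the 3 control arrays for the 13 tested EIF3 subunits, with 3 knockdown points (filled) left of 3 control points (open) and a short line at each group mean. EIF3E, EIF3F, EIF3H and EIF3L lie higher in the knockdown, EIF3D overlaps, and the other 8 lie lower, with the widest gap in EIF3J. Control shRNA in the legend stands for the GFP control vector.

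The EIF4 group was mostly lower. Of 11 tested members, 2 rose (18.2%), 7 fell (63.6%) and 2 did not pass, against 25.3% and 22.0% of all genes. The median change was -0.44, or -0.24 with the mean over the probe sets of each gene. EIF4A3, a DEAD-box helicase of the eIF4A family that is part of the exon junction complex, was at 8.24, 8.33 and 8.30 in the knockdown arrays, against 9.59, 9.42 and 9.39 in the control arrays. The groups stood apart by more than the whole spread of each, and EIF4A3 changed by -1.18 ± 0.085 (SE, limma adjusted p = 1.35e-12), to 44.2% of control. The eIF4A helicases of the cap complex itself, EIF4A1 and EIF4A2, were among the members without a test.

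The cap-binding proteins were lower or did not pass. EIF4E2, a relative of eIF4E known for repressing translation, was at 6.72, 6.98 and 6.76 in the knockdown arrays, against 7.90, 7.74 and 7.61 in the control arrays, a change of -0.93 ± 0.11 (SE, limma adjusted p = 2.94e-08). EIF4E, the cap-binding subunit of eIF4F, fell by 0.64 (limma adjusted p = 2.99e-06), with a change of -0.30 when probe sets with no suffix were taken first (limma adjusted p = 0.0725). EIF4E3 differed by 0.07 on its brightest probe set (limma adjusted p = 0.636), while a pair of its dimmer probe sets were higher by 0.55 and 0.38 (adjusted p = 0.00207 and 0.033 in limma over all probe sets).

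EIF4G1, the scaffold that joins eIF4E to eIF3, was at 9.13, 9.22 and 9.12 in the knockdown arrays, against 9.74, 9.75 and 9.71 in the control arrays. Its groups did not overlap, and it fell by 0.58 (SE 0.074, limma adjusted p = 1.48e-07). A dimmer EIF4G1 probe set changed by 0.09 without passing. EIF4G2, the scaffold known as DAP5 that does not bind eIF4E, was lower by 0.16 (limma adjusted p = 0.0149) on its brightest probe set and higher by 0.35 on another. Its lower call was lost without knockdown replicate 2 (limma adjusted p = 0.0616) or knockdown replicate 3 (limma adjusted p = 0.0541). The helicase cofactors EIF4B and EIF4H went opposite ways. EIF4B was at 10.22, 10.34 and 10.34 in the knockdown arrays, against 9.91, 10.05 and 9.91 in the control arrays, higher in every knockdown array by 0.34 on average (SE 0.067, limma adjusted p = 8.77e-05), and EIF4H fell by 0.45 (limma adjusted p = 6.36e-06). The other EIF4B probe sets changed by 0.16 and -0.25 without passing, and the mean over its probe sets by 0.08 (limma adjusted p = 0.332).

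The eIF4E-binding proteins hold eIF4E away from EIF4G1 until mTORC1 phosphorylates them. EIF4EBP1 was at 8.21, 8.39 and 8.21 in the knockdown arrays, against 7.99, 7.85 and 7.88 in the control arrays. It was higher in each knockdown array, by 0.36 on average (SE 0.095, limma adjusted p = 0.00246). EIF4EBP2 fell by 0.44 (limma adjusted p = 0.000682). EIF4ENIF1, which carries eIF4E into the nucleus, differed by -0.05 (limma adjusted p = 0.736). Arrays do not measure phosphorylation of these proteins.

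The last steps of initiation are served by EIF5, which triggers GTP hydrolysis on eIF2, and by EIF5B, which joins the ribosomal subunits. EIF5B was at 8.07, 8.01 and 7.81 in the knockdown arrays, against 8.99, 8.75 and 8.80 in the control arrays. It changed by -0.88 ± 0.096 (SE, limma adjusted p = 7.99e-09), and its 5 further probe sets were lower too. EIF5A, which carries the amino acid hypusine and eases elongation, was at 10.36, 10.34 and 10.38 in the knockdown arrays, against 10.71, 10.91 and 10.57 in the control arrays. Its groups did not overlap, and it fell by 0.37 (SE 0.068, limma adjusted p = 3.87e-05). EIF6, which keeps the large subunit free, fell by 0.36 (limma adjusted p = 0.00132).

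EIF5 differed by 0.06 on its brightest probe set and did not pass (limma adjusted p = 0.591). Its other probe sets included 1 higher by 0.44 and a pair lower by 0.47 and 0.51. The 4 factors with probe sets called in both directions were EIF2S1, EIF3B, EIF4G2 and EIF5, out of 25 factors with several probe sets above the filter. Among all genes with several such probe sets the share was 2.57%. EIF2S2, EIF2S3, EIF3J, EIF5A and EIF5B had each of their probe sets above the filter called the same way. Over the 101 factor probe sets above the filter, 25 were higher, 43 lower and 33 not called, where 21.5% and 18.4% of all such probe sets were called higher and lower.

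**Figure D4:**
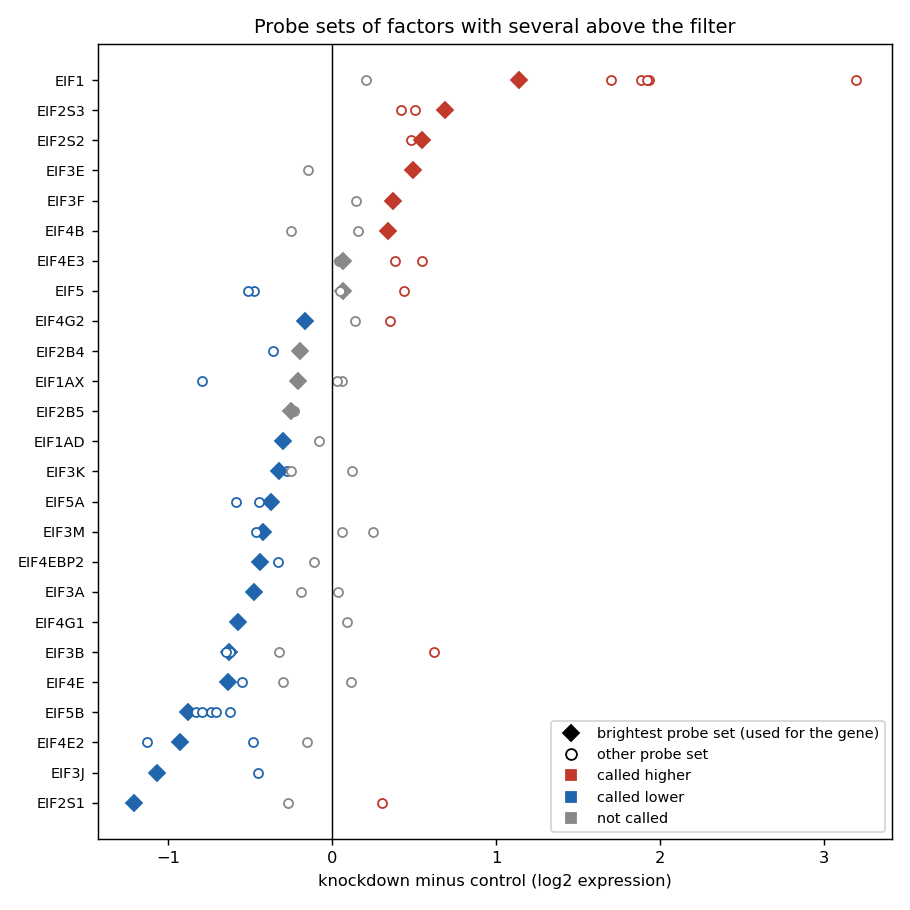
Change of each probe set above the filter for the factors that have several, knockdown minus control in log2 units, with a filled diamond for the brightest probe set, which stands for the gene, and open circles for the others. Colours show calls adjusted over all probe sets, under which the brightest probe sets of EIF1AX and EIF2B5 do not pass although they do among genes. EIF1 lies to the right with 6 called probe sets, and EIF2S1, EIF3B, EIF4G2 and EIF5 have called probe sets on both sides of 0.

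The starts shown above can be set beside these changes. RefSeq held promoter windows for 40 of the 48 coding factors, from 250 bases before to 50 bases after a start, with 54 starts in all. A C followed by at least 4 pyrimidines lay on an annotated start in 9 of the 40, or 22.5%, against 5.14% of 27305 genes and 6.24% of 15843 protein-coding genes. Of the 6 higher factors with a window, EIF2A, EIF2D, EIF2S3, EIF3F and EIF4B had it. EIF1, the other one, had such a run a few bases upstream of its start:
EIF1, chr17:41688870-41688899, plus strand: aggcaccgCCCCTCTgccccagtcactgag

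Of 23 lower factors with a window, EIF3K and EIF3M had the run on a start. The rest of the 9 were EIF3D, which did not pass, and EIF4A2, which was not tested. Of the factors with the run on a start, EIF3F, EIF3K, EIF3M and EIF4B lost their calls with the mean over probe sets. A run that begins within 10 bases of a start was in all 6 higher factors and in 11 of the 23 lower ones (47.8%). EIF3C, EIF3J and EIF4E2 were among these lower factors. Of protein-coding genes, 41.1% had a run that near. The pattern was chosen after the changes were known and is a description with no test. EIF2S2, EIF3E, EIF3H, EIF3L, EIF4EBP1, EIF3A, EIF3G and EIF3CL had no entry in the promoter table. An annotated start need not be the start used in MM1.S cells.

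The E-box CACGTG, a palindrome that reads the same on both strands and to which MYC with MAX and other factors bind, was in the windows of 11 of the 40 factors, or 27.5%, against 8.77% of all genes and 10.9% of protein-coding genes. The higher factors with it were EIF3F and EIF4B, and the lower ones were EIF2B3, EIF3K, EIF4A3, EIF4E, EIF4G1 and EIF4H. TGATGNAA, a composite element bound by ATF4 with CEBP proteins and searched on both strands, was found in 1 factor, EIF4E3, or 2.5%, against 4.46% of all genes and 3.6% of protein-coding genes.

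**Figure D5:**
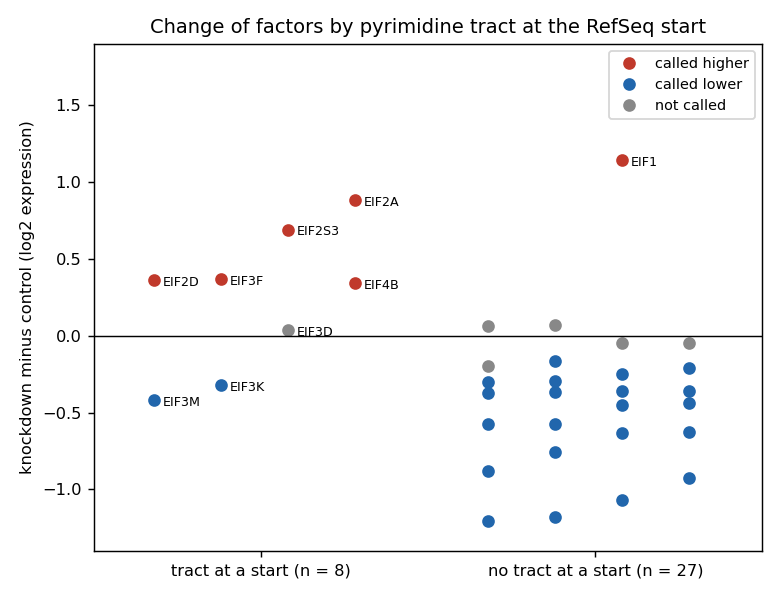
Change of the tested factors with a promoter window, knockdown minus control in log2 units, split by whether C followed by at least 4 pyrimidines lies on an annotated start. Sideways position within a column has no meaning. EIF2A, EIF2D, EIF2S3, EIF3F and EIF4B are the higher factors in the left column, and EIF1 is the higher one in the right column.

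The pathways around initiation moved in several directions. The shares of each list can be read beside all genes tested, of which 25.3% were called higher and 22.0% lower. Of 14 kinases, phosphatase subunits and their regulators that act on eIF2 alpha, 6 rose (42.9%) and 4 fell (28.6%), with a median of 0.14. PPP1R15A (GADD34), which brings the phosphatase to eIF2 alpha, rose by 2.86 (limma adjusted p = 4.04e-20). EIF2AK4 (GCN2), the kinase that senses uncharged tRNA, rose by 1.15 (limma adjusted p = 6.35e-10), and EIF2AK3 (PERK), the kinase of the endoplasmic reticulum, by 0.75 (limma adjusted p = 1.63e-07). DNAJC3, a co-chaperone that inhibits such kinases, rose by 0.99 (limma adjusted p = 4.98e-10). ATF4 is a transcription factor whose mRNA is translated better when eIF2 alpha is phosphorylated. All 13 tested genes of the ATF4 branch list rose, with a median of 2.19, where 25.3% of all genes were called higher. Among them, ATF3 rose by 3.93 (limma adjusted p = 5.16e-25) and CHAC1 by 3.69 (limma adjusted p = 1.56e-21). This list was chosen with earlier results of these data known, so its shared direction is a description and no test. Its member ATF5, below the filter, was at 5.34 in the knockdown and 5.61 in the control.

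Upstream of eIF4E, 5 of 18 tested kinases and regulators rose (27.8%) and 2 fell (11.1%), with a median of 0.09. The higher share was near the 25.3% of all genes, and the lower share was below their 22.0%. DDIT4, DEPTOR and SESN2, inhibitors of mTORC1 signalling, rose by 2.61, 2.15 and 2.18 (limma adjusted p = 1.99e-20, 9e-19 and 1.24e-16). RPS6KB2, an S6 kinase, fell by 0.58 (limma adjusted p = 4.36e-05). DDIT4 and SESN2 stand in the ATF4 branch list as well.

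A mixed list held mRNA-end proteins, scanning and reinitiation partners and mitochondrial initiation factors. Of its 16 tested genes, 3 rose (18.8%) and 9 fell (56.2%), with a median of -0.33. NCBP1 of the nuclear cap-binding complex fell by 0.86 (limma adjusted p = 1.69e-07), LARP1, which binds terminal oligopyrimidine mRNAs, by 0.61 (limma adjusted p = 3.57e-07) and the poly(A)-binding PABPC1 by 0.53 (limma adjusted p = 1.7e-08). PABPC3, a close copy of PABPC1 whose probe sets may share its signal, fell by 0.46 (limma adjusted p = 3.25e-07).

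Termination and recycling factors were lower in 5 of 8 tested (62.5%), with 1 higher (12.5%) and a median of -0.37. The release factors GSPT1 (eRF3a) and ETF1 (eRF1) fell by 1.99 and 0.74 (limma adjusted p = 1.86e-17 and 1.1e-07), and ABCE1, which splits the ribosome, by 0.61 (limma adjusted p = 1.71e-06). Of 9 tested elongation factors, 1 rose (11.1%) and 3 fell (33.3%), with a median of -0.04. EEF2, which moves the ribosome along the mRNA, rose by 0.55 (limma adjusted p = 2.58e-13). The 3 lower ones, TUFM, GFM1 and TSFM, are mitochondrial and changed by -0.75, -0.44 and -0.31 (limma adjusted p = 3.57e-09, 0.000751 and 0.0121).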

How the data were processed

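The members and lists were chosen with earlier results of these data known. The authors deposited one table of log2 values for 54675 probe sets on 6 arrays. Its lowest value is 4, and MAS5 and PLIER are named in the submitters' processing notes without version or role. The background correction and scaling are therefore not known, and changes of dim probe sets may be understated. Label text that speaks of embryos does not match the MM1.S cell line and was set aside. The platform annotation named 1 gene for 41091 probe sets, several for 1801 and none for 11721, and names were matched to RefSeq GRCh38.p14.

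The brightest probe set with 1 symbol stood for a gene, and genes with a mean of at least 5.49, the median over probe sets, were tested. Knockdown minus control was fitted with limma 3.58.1 in R 4.3.3 (lmFit, eBayes with an intensity trend, two-sided), with Benjamini-Hochberg adjustment over 12939 genes and a threshold of 0.05. The fit was tested on simulated data in which 200 of the 12939 genes changed. It recovered 41% of the log2 changes of 0.5 and 94% of those of 1, and 2.17% of its calls were false. Far fewer genes changed in the simulation than were called in these arrays. Each group has 3 arrays, which limits the precision. An exact permutation test of 3 against 3 arrays can give no p below 0.1. Same-numbered arrays did not deviate together (r = -0.09, -0.26 and -0.30), so they were not paired. Per-array values are given for up to 3 called members in each direction of the EIF2B, EIF3 and EIF4 groups by adjusted p, up to 2 in the other groups and the uncalled EIF2B member, and up to 4 called genes are named per pathway list. EIF3J-DT arrays were chosen after their values were seen. Normalization, filter, probe set choice, test and left-out arrays were varied. The mean over probe sets took every probe set of a gene with 1 symbol, also those below the filter.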

Additional observations from a re-analysis of the deposited data

How the results depend on the processing

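Among 16 alternatives, 17 of the 36 called factors kept the same call in each one that gave a value, 6 higher and 11 lower. Of 671 values of single factors, 614 kept their call, 44 no longer passed, 5 newly passed and 8 turned direction with a call in at least 1 of both fits. The number of factors called higher lay between 8 and 12 and the number called lower between 18 and 25. With a replicate block for the array numbers, which the data do not pair, 11 factors were higher and 22 lower and 5494 genes were called. With no moderation of the spread, 10 factors were higher and 18 lower, 1 EIF2B subunit passed and 4433 genes were called. With probe sets that carry no _x_ or _s_ suffix taken first, the EIF3 median turned to 0.036 and the EIF4 median was -0.30, and EIF1AX changed by 0.030, EIF2S1 by 0.31, EIF3A by 0.038, EIF3B by 0.62, EIF3E by -0.15 and EIF3K by 0.12. With the mean over probe sets, EIF3H changed by -0.035 and EIF4G2 by 0.11, the EIF3 median was -0.18 and the EIF4 median -0.24, and CTNNB1 changed by -0.36. The EIF4 median was -0.49 after centring on array medians and -0.38 with no filter. Leaving out single arrays gave medians of -0.40 to -0.22 for EIF3, -0.44 to -0.38 for EIF4 and -0.36 to -0.22 for EIF2B, and -1.385 to -1.29 for CTNNB1. These causes were not tested. Dim probe sets near the lowest value limit what can be seen of EIF1AY, EIF4A2 and EIF5A2.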
